A study of Mus musculus with 8 samples.

Results

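The insulin-like growth factor (IGF) genes measured here were the ligands Igf1 and Igf2, the receptors Igf1r and Igf2r, and the binding proteins Igfbp2, Igfbp3, Igfbp4, Igfbp5, Igfbp6 and Igfbp7. These 10 genes were taken by symbol from the 23224 genes listed in the deposited table. Of the 10, 9 had a count in some library and 7 passed the filter on low counts, as did 13318 genes in all. Igf1, Igf2 and Igfbp2 did not pass it.

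The study sequenced RNA of mouse cell lines grown from lung adenocarcinomas, with 2 libraries for each of 4 groups. All groups shared the genotype KrasG12/+;Trp53-/-, as the labels spell it. The Tnonmet lines derived from a non-metastatic primary tumour and received virus with an shRNA against luciferase (shControl), against Nkx2-1 (shNkx2-1), or against Nkx2-1, Foxa2 and Cdx2 together (here the triple knockdown). The Tmet lines derived from a metastatic one, and no shRNA is named for them. Differences between Tmet and the other groups therefore cannot be told apart from differences between tumours of origin or from the viral treatment. All cells grew in medium with fetal bovine serum, so the level of IGFs around the cells was not set by the cells alone. The labels do not say whether the duplicates were separate lines, clones or cultures. The p-values therefore reflect only how far duplicates differed, pooled over the 4 groups in 1 fit, a spread that may be technical. Comparisons among the Tnonmet groups thus also carry the spread of the Tmet duplicates.

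IGF1 and IGF2 are secreted peptides that activate the tyrosine kinase encoded by Igf1r, which signals through docking proteins to the PI3K-AKT and RAS-ERK pathways and promotes growth and survival. The receptor encoded by Igf2r has no kinase: it takes up IGF2 for breakdown in lysosomes and carries enzymes tagged with mannose-6-phosphate. IGF binding proteins hold IGFs outside the cell, lengthen their life, limit or deliver them to the receptor, and are themselves opened by proteases. In the lung, IGF signalling takes part in growth before birth.

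The 4 genes whose group means spanned the widest range were binding protein genes: Igfbp6 (7.96 in log2 CPM, counts-per-million), Igfbp5 (6.22), Igfbp3 (5.19) and Igfbp7 (4.99). Their promoters are shown because these genes carried the differences, and because the factors knocked down bind DNA: Nkx2-1 and Cdx2 are homeobox factors and Foxa2 a forkhead factor. Each sequence is the 250 bases before the RefSeq transcript start in GRCm38.p6, read 5′ to 3′ on the gene's strand. Igfbp3 is at chr11:7213924-7214173 (minus), Igfbp5 at chr1:72874866-72875115 (minus), Igfbp6 at chr15:102143936-102144185 (plus) and Igfbp7 at chr5:77408046-77408295 (minus). Capitals mark matches to the motifs searched for.
Igfbp3: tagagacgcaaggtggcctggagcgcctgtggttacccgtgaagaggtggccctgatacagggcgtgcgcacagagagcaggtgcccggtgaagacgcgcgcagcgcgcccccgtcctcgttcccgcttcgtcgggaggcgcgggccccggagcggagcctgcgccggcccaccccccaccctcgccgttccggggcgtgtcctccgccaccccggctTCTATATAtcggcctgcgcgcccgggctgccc
Igfbp5: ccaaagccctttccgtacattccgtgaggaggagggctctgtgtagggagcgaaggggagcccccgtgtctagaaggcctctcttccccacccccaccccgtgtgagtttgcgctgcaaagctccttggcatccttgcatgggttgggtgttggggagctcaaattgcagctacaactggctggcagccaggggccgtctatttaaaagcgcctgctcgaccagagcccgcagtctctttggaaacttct
Igfbp6: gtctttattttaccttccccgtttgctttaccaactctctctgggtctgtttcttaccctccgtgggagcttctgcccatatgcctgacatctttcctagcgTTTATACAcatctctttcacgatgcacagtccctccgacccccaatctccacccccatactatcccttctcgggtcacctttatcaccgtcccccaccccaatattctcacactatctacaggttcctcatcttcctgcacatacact
Igfbp7: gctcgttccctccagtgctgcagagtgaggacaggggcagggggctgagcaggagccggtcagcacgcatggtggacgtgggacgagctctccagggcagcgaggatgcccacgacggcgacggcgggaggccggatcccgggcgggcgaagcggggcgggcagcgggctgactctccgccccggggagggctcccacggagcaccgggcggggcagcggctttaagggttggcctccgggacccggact

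The motifs were searched for on both strands. They were TGTTTAC for forkhead factors (in 3.17% of all 32536 RefSeq promoters of this length), TTTATNG for caudal factors such as Cdx2 (9.74%), CTCAAG for Nkx2-1 (13.3%) and TATANA for the TATA box (22.3%). The Igfbp3 promoter held overlapping TATA matches beginning at bases -32 and -30 from the start, the usual place of a TATA box, and that of Igfbp6 had them at -148 and -146. No match lay in the Igfbp5 and Igfbp7 windows. Among the other genes the TATA motif lay at -28 in Igfbp4, the Nkx2-1 motif at -101 in Igf1 and at -41 in 1 of 2 Igfbp2 promoters, and the caudal motif at -152 in 1 of 4 Igf2 promoters. Neither receptor promoter held any of the motifs. G and C made up 73.2% of the Igfbp3, 58.8% of the Igfbp5, 49.6% of the Igfbp6 and 74.0% of the Igfbp7 window, against a median of 52.4% over all promoters. A match of letters describes the sequence and does not show binding.

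Total estimated counts were 14496995 to 21044835 per library. Nkx2-1 ranged over 68.0 to 76.4 CPM in shControl, 37.7 to 44.8 with its own shRNA, 34.0 to 38.1 with all 3 shRNAs and 0.219 to 0.353 in Tmet. Foxa2 stood at 28.2 to 34.1 CPM and Cdx2 at 6.80 to 9.41 in the triple knockdown, against 55.1 to 56.8 and 98.6 to 111 in shControl. The shNkx2-1 libraries thus held reduced and not absent Nkx2-1, with Cdx2 at 175 to 186 CPM. The epithelial cadherin Cdh1 stood at 682 to 1005 CPM in the Tnonmet groups and at 3.17 and 3.33 in Tmet, while the lung surfactant gene Sftpc was at 0 to 0.202 CPM in all 8 libraries. Duplicates correlated across genes, which are not independent replicates, at r = 0.991 to 0.992 for Tnonmet and 0.975 for Tmet.

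Markers of other cell types differed between groups, and their part in the results below was not tested. The summed level of 9 fibroblast genes was 5.47 to 5.63 CPM in shControl, 8.73 to 10.4 with the Nkx2-1 shRNA, 20.9 to 21.3 with all 3 shRNAs and 267 to 825 in Tmet. All 6 of these genes that passed the filter were called higher in Tmet than in shControl, and 2 of the 6 in the triple knockdown. Among the 6, Pdgfrb had 0 or 1 count per Tnonmet library and passed the filter through the Tmet libraries alone. Of all tested genes, 29.2% were called higher and 28.1% lower in Tmet than in shControl, and 12.0% higher in the triple knockdown. The collagen gene Col1a1 stood at 72.3 and 346 CPM in the Tmet libraries, but the fibroblast gene Lum was at 0 in all 8 libraries and Thy1 was at 0 in the Tnonmet groups and at 0.109 and 0.0504 CPM in Tmet. Of 7 leukocyte genes 2 passed the filter, and the summed level was 26.9 to 36.9 CPM in shControl, shNkx2-1 and Tmet and 62.5 to 64.8 in the triple knockdown, where both were called higher. Cd14 made up most of that level, while the leukocyte gene Ptprc had 0 to 0.252 CPM. Endothelial genes summed to 0.563 to 1.81 CPM in all groups, and 1 of 5 passed the filter, with no call. Epithelial genes summed to 6855 to 10250 CPM in the Tnonmet groups and to 1438 and 2624 in Tmet, with 5 of 6 tested called lower there than in shControl. The keratin genes Krt8, Krt18 and Krt19 made up most of that level, with Krt8 still at 1311 and 777 CPM in Tmet. The epithelial gene Epcam had only 0 to 0.676 CPM over all 8 libraries and did not pass the filter.

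Transcripts of neither ligand were detectable beyond a few reads. Igf1 had 0 counts in the 4 shControl and shNkx2-1 libraries, 0 and 1 with all 3 shRNAs, and 2 in each Tmet library. Igf2 had 0 counts in the same 4 libraries, 2 and 0 with all 3 shRNAs, and 1 and 2.55 in Tmet. Every value lay under the floor of 3 counts, which corresponds to 0.151 to 0.200 CPM, so that no group difference was detectable at this depth. The read assignment of Igf2 carries a further limit, because 68.5% of its exon bases also belong to the annotated transcript Gm49394 on the same strand. Of its neighbours on chromosome 7, Ins2, an insulin gene, had 0 counts throughout, and the noncoding RNA H19, imprinted with Igf2, had 0 in the Tnonmet groups and 0.601 and 0.151 CPM in Tmet.

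Both receptors were expressed in every library at levels that changed little. Igf1r had 70.4 and 90.8 CPM in the shControl libraries, 83.1 and 111 with the Nkx2-1 shRNA alone, 88.9 and 97.1 with all 3 shRNAs, and 96.7 and 85.6 in Tmet. All 4 groups overlapped, with the lowest and the highest library both in groups whose duplicates lay far apart. Against shControl the log2 change of Igf1r was 0.27 ± 0.18 (SE, adjusted p = 0.496) in shNkx2-1, with a 95% interval of -0.14 to 0.68. It was 0.20 ± 0.18 (-0.20 to 0.61, adjusted p = 0.446) in the triple knockdown and 0.18 ± 0.18 (-0.23 to 0.58, adjusted p = 0.425) in Tmet. The intervals leave room for a rise of the size that their upper ends give, and none of the 6 comparisons passed the test for Igf1r.

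Igf2r had 100.6 and 91.6 CPM in the shControl libraries, 111 and 120 with the Nkx2-1 shRNA alone, 94.5 and 97.2 with all 3 shRNAs, and 95.7 and 81.5 in Tmet. The shNkx2-1 libraries were the 2 highest, and the other 3 groups overlapped. Igf2r was lower in Tmet than in shNkx2-1 (log2 change -0.39 ± 0.12, adjusted p = 0.0233), the one receptor call in the 6 comparisons. That call was lost in a fit of these 2 groups alone (adjusted p = 0.0896), without shNkx2-1 replicate 1 or 2 (0.0526 and 0.125) and without Tmet replicate 2 (0.0535). The triple knockdown against shNkx2-1 gave -0.27 ± 0.12 (adjusted p = 0.149), which passed in a fit of these groups alone (0.0449) and without both Tmet libraries (0.0363), Tmet replicate 1 (0.0389) or Tmet replicate 2 (0.0389). The antisense RNA Airn, transcribed within Igf2r, averaged 1.92 to 2.58 CPM per group and was called in none of the 6 comparisons. In the annotation used here for exon lengths, Igf2r shares no exon base with another gene. The annotation and strand setting of the counting are not given, so reads of the 2 genes may not be fully separate.

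**Figure D1:**
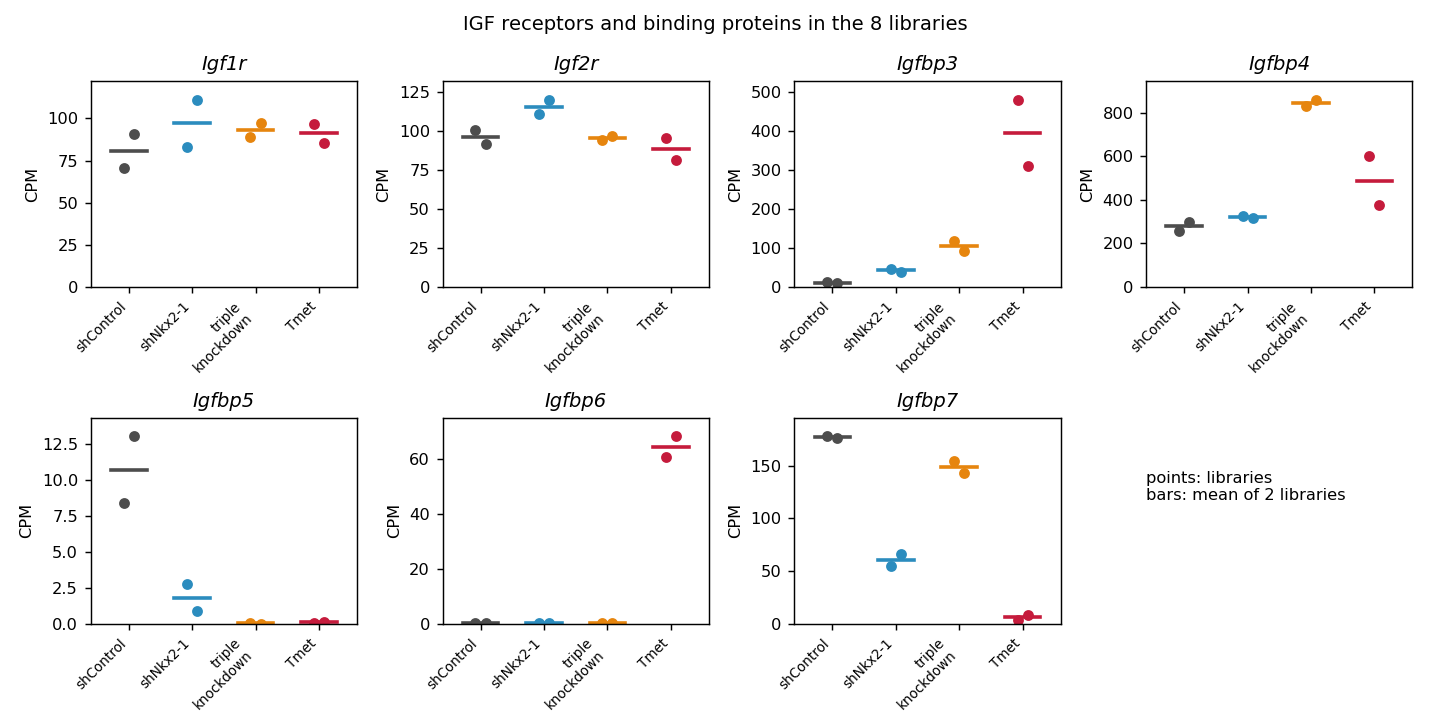
Level of the 7 genes that passed the filter, in counts-per-million (CPM, linear axes from 0, a separate scale for each gene), for each of the 4 groups. Points are libraries and bars the mean of 2 libraries. Igf1r and Igf2r stay between 70.4 and 120 CPM in every library, Igfbp3 climbs from 9.39 to 481, and Igfbp6 is above 0.362 in the Tmet libraries alone.

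The plot of levels in the 8 libraries shows how unlike the binding proteins were to the receptors and to each other. Igfbp3, which encodes the main IGF carrier of blood plasma, had 11.7 and 9.39 CPM in the shControl libraries, 46.0 and 39.5 with the Nkx2-1 shRNA alone, 117 and 91.6 with all 3 shRNAs, and 481 and 310 in Tmet. The groups did not overlap and stood in that order. As these are bulk samples, more cells that express a gene and more RNA per cell cannot be told apart, here or in the results that follow. The rise over shControl was 4.07-fold in shNkx2-1 (log2 change 2.03 ± 0.25, adjusted p = 0.00851), 9.94-fold in the triple knockdown (3.31 ± 0.25, adjusted p = 0.000137) and 37.7-fold in Tmet (5.24 ± 0.27, adjusted p = 3.03e-06). Each step was also called: the triple knockdown exceeded shNkx2-1 (1.29 ± 0.23, adjusted p = 0.00653), and Tmet exceeded shNkx2-1 (3.21 ± 0.24, adjusted p = 2.25e-05) and the triple knockdown (1.92 ± 0.23, adjusted p = 0.000346). These comparisons share groups and are not independent of each other.

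For 2 of the 6 Igfbp3 comparisons the call was lost in some fits without 1 library, while the size of the change moved little. The call of shNkx2-1 against shControl was lost without shControl replicate 1 or 2 and without shNkx2-1 replicate 1 or 2, at log2 changes of 1.87 to 2.18. Without shControl replicate 1 no tested gene was called in this comparison. A loss in that fit, here or below, is thus not particular to the gene. The call of the triple knockdown against shNkx2-1 was lost without shNkx2-1 replicate 2 (log2 change 1.18, adjusted p = 0.0735) or triple knockdown replicate 1 (1.1, adjusted p = 0.0536). The other 4 calls of Igfbp3 held under all alternatives run.

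Igfbp4 encodes a binding protein that mostly blocks IGFs until the protease PAPP-A cuts it. It had 257 and 300 CPM in the shControl libraries, 327 and 315 with the Nkx2-1 shRNA alone, 830 and 860 with all 3 shRNAs, and 600 and 378 in Tmet. The triple knockdown was highest, with Tmet below it and the other groups lowest, and no groups overlapped. The triple knockdown was 3.03-fold above shControl (log2 change 1.60 ± 0.20, adjusted p = 0.00127) and 2.63-fold above shNkx2-1 (1.40 ± 0.20, adjusted p = 0.00276), and both calls held under all alternatives. shNkx2-1 did not pass against shControl (0.20 ± 0.20, interval -0.25 to 0.66, adjusted p = 0.662).

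The Tmet level of Igfbp4 was less firm, since its duplicates differed. It exceeded shControl by 0.81 ± 0.20 in log2 (adjusted p = 0.00888), which did not hold without shControl replicate 1 (0.0794). It lay below the triple knockdown by a log2 change of -0.79 ± 0.20 (adjusted p = 0.0123), lost without triple knockdown replicate 2 (0.0643). Over shNkx2-1 it rose by 0.61 ± 0.20 (adjusted p = 0.0295). This last call was lost in a fit of the 2 groups alone (0.0918) and in 7 of the 8 fits without 1 library, all but that without Tmet replicate 2. Its adjusted p was 0.0514 to 0.0539 without 1 shControl or triple knockdown library, 0.106 and 0.139 without shNkx2-1 replicate 1 or 2, and 0.0916 without Tmet replicate 1. In that last fit the log2 change was 0.23, and in the others that lost the call it was 0.57 to 0.62.

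Igfbp5, whose product binds the extracellular matrix as well as IGFs, ran the other way. It had 126 and 253 counts (8.40 and 13.1 CPM) in shControl and 45 and 15 (2.74 and 0.845 CPM) in shNkx2-1. In the triple knockdown there remained 1 and 0 counts, and in Tmet 1 and 2. The shControl libraries were highest and the shNkx2-1 libraries next, without overlap, while the triple knockdown and Tmet overlapped near 0. The ratio of shControl to the triple knockdown was 355, with a 95% exact counting interval of 63.3 to 14055 (adjusted p = 0.000672). That of shControl to Tmet was 140 (47.6 to 683, adjusted p = 0.000167). The ratio of shNkx2-1 was 56.5 to the triple knockdown (9.75 to 2267, adjusted p = 0.00809) and 22.3 to Tmet (7.27 to 111, adjusted p = 0.00299). These intervals hold counting error alone. They rest on the counts of the 2 libraries of a group summed and leave out the spread between duplicates. They may also be too narrow because copies made by PCR carried no molecular mark.

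The fall of Igfbp5 in shNkx2-1 against shControl was 6.03-fold (log2 change -2.59 ± 0.52, adjusted p = 0.0402). It was lost with the replicate block (adjusted p = 0.0713), without shControl replicate 1 or 2 (0.201 and 0.258), without shNkx2-1 replicate 1 or 2 (0.0782 and 0.186) and without triple knockdown replicate 1 or 2 (both 0.0821). The size of this fall rested on the shNkx2-1 duplicates, which differed: it was 12.7-fold without replicate 1 and 3.93-fold without replicate 2 of that group. The same holds for the fitted level of shNkx2-1 over Tmet, which was 20.8-fold with both, 10.05-fold without replicate 1 and 32.3-fold without replicate 2. Over the triple knockdown the fitted fold was 46.7 with both, 22.4 without replicate 1 and 71.9 without replicate 2. The triple knockdown duplicates moved it further, to 250 without their replicate 1 and 26.5 without their replicate 2. The fitted fold of shControl over the triple knockdown was 281, and 1507 and 160 in the same 2 fits. The call of the triple knockdown against shNkx2-1 was lost without triple knockdown replicate 2 (0.0677). With 1 and 3 counts in all, the triple knockdown and Tmet could not be told apart (adjusted p = 0.609). Igfbp2, the gene beside Igfbp5 on chromosome 1, had 0 counts in all 8 libraries, which allows up to 0.151 to 0.200 CPM. It encodes a binding protein of fetal tissues and of several tumours.

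Igfbp6 encodes a binding protein with a preference for IGF2. The shControl libraries held 3 and 4 counts, the shNkx2-1 libraries 2 and 3, those of the triple knockdown 6 and 5, and the Tmet libraries 1109 and 1353. In CPM the Tnonmet libraries lay between 0.122 and 0.362 and the Tmet libraries at 60.6 and 68.2, with a wide gap between them. The ratio of Tmet to shControl was 317, with a 95% exact counting interval of 154 to 789 (adjusted p = 2.93e-07). That of Tmet to shNkx2-1 was 442 (189 to 1362, adjusted p = 2.41e-07), and that to the triple knockdown was 189 (105 to 379, adjusted p = 4.77e-07). The gene passed the filter through the Tmet libraries alone, and the intervals hold counting error only. All 3 calls held under the alternatives run. Among the Tnonmet groups no comparison passed (adjusted p = 0.234 to 0.823), at counts too low for a firm comparison. In Tmet against shControl the 6 tested fibroblast genes were also called higher, beside 29.2% of all tested genes. Among them, Pdgfrb passed the filter through the Tmet libraries alone. The part of the fibroblast genes in the Igfbp6 level was not tested.

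Igfbp7 encodes a secreted protein related to the other binding proteins that binds IGFs weakly. It had 178 and 176 CPM in the shControl libraries, 54.3 and 66.0 with the Nkx2-1 shRNA alone, 155 and 143 with all 3 shRNAs, and 3.72 and 7.96 in Tmet. It was highest in shControl, a little lower in the triple knockdown, lower again in shNkx2-1 and lowest in Tmet, and no groups overlapped. Against shControl, Tmet was 30.1-fold lower (log2 change -4.91 ± 0.31, adjusted p = 8.08e-06). Tmet also lay below shNkx2-1 (-3.36 ± 0.29, adjusted p = 4.71e-05) and the triple knockdown (-4.66 ± 0.30, adjusted p = 1.46e-05), and these 3 calls held under all alternatives. The Tmet duplicates differed, and without replicate 2 the fall against shControl was 47.6-fold, that against shNkx2-1 16.2-fold in place of 10.2-fold, and that against the triple knockdown 40.0-fold in place of 25.3-fold.

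Among the Tnonmet groups Igfbp7 was lower with the Nkx2-1 shRNA alone than with all 3. It fell in shNkx2-1 (log2 change -1.56 ± 0.26, 2.94-fold, adjusted p = 0.0218), and the triple knockdown exceeded shNkx2-1 by 1.31 ± 0.25 (2.47-fold, adjusted p = 0.00965). The triple knockdown against shControl gave -0.25 ± 0.25 (interval -0.83 to 0.32, adjusted p = 0.512), called only in a fit of these 2 groups (0.0295). The fall in shNkx2-1 was lost without shControl replicate 1 or 2 (0.187 and 0.129), shNkx2-1 replicate 1 or 2 (0.196 and 0.126) or triple knockdown replicate 1 or 2 (both 0.060), at log2 changes of -1.71 to -1.43. The higher level in the triple knockdown was lost without shNkx2-1 replicate 1 or 2 (0.0780 and 0.0538) or triple knockdown replicate 1 or 2 (0.0683 and 0.0546), at 1.17 to 1.45. Igfbp7 shares 85 exon bases (7.03% of its exon length) with Polr2b on the opposite strand, and its counts could hold reads of that gene. Apart from Igf2 and Igfbp7, the other 8 genes share no exon base with another annotated gene.

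**Figure D2:**
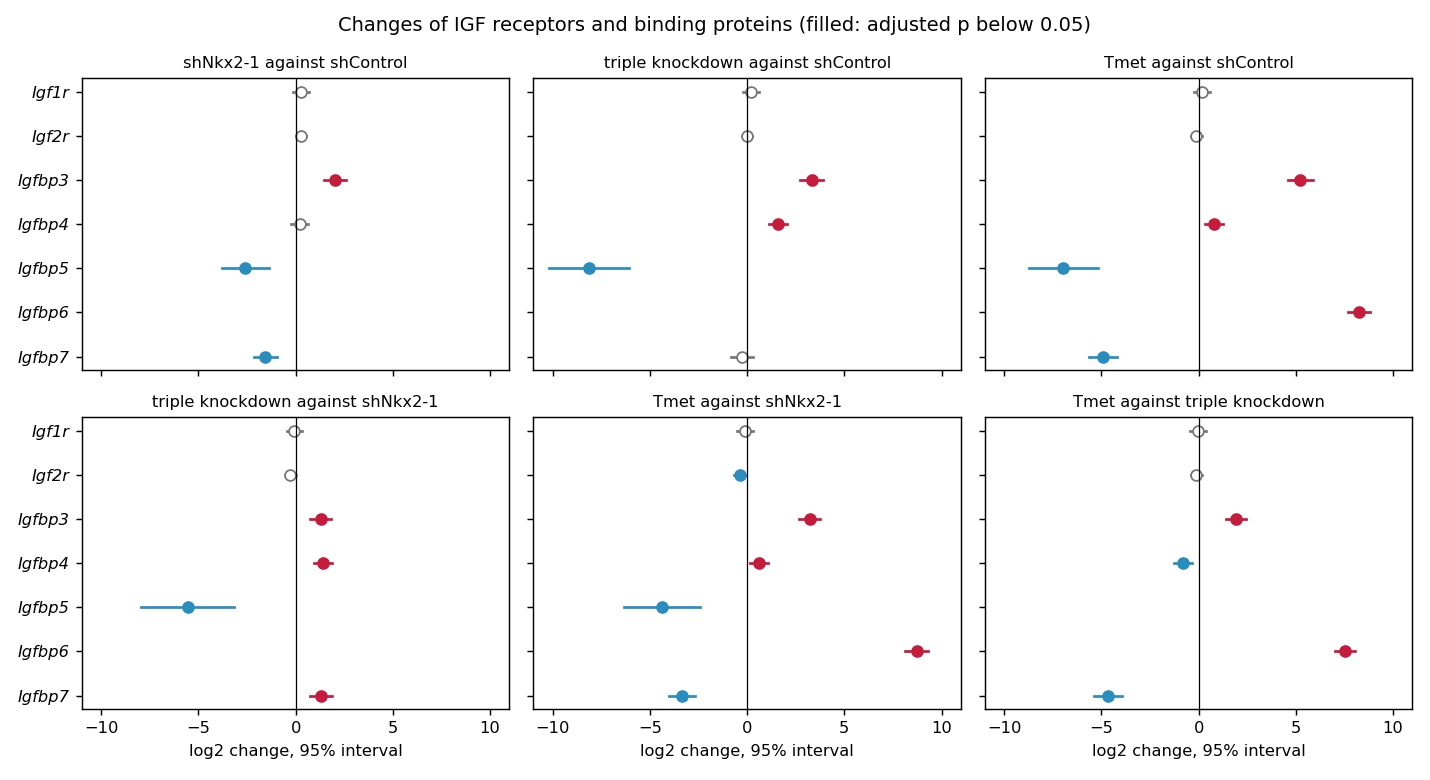
Log2 change of the 7 tested genes in each of the 6 comparisons (x axis), with 95% intervals as lines. Filled points passed adjusted p 0.05 (red higher, blue lower) and open points did not. Igfbp6 is left out where only Tnonmet groups are compared, and Igfbp5 where Tmet is compared with the triple knockdown, because the counts were too low. The points of Igfbp5 and Igfbp6 against groups with few counts depend on the prior count of the fit, while Igf1r and Igf2r lie near 0 throughout.

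Counted by comparison, the 7 tested genes were called as follows, beside the share of all tested genes called in the same direction. In shNkx2-1 against shControl 1 was higher (Igfbp3; background 2.17%) and 2 lower (Igfbp5 and Igfbp7; 1.38%). In the triple knockdown against shControl 2 were higher (Igfbp3 and Igfbp4; 12.0%) and 1 lower (Igfbp5; 12.4%). In Tmet against shControl 3 were higher (Igfbp3, Igfbp4 and Igfbp6; 29.2%) and 2 lower (Igfbp5 and Igfbp7; 28.1%), so that calls were common among all genes there. In the triple knockdown against shNkx2-1 3 were higher (Igfbp3, Igfbp4 and Igfbp7; 9.27%) and 1 lower (Igfbp5; 11.1%). Tmet against shNkx2-1 had 3 higher (Igfbp3, Igfbp4 and Igfbp6; 29.3%) and 3 lower (Igf2r, Igfbp5 and Igfbp7; 28.8%). Tmet against the triple knockdown had 2 higher (Igfbp3 and Igfbp6; 24.0%) and 2 lower (Igfbp4 and Igfbp7; 24.1%). Against shControl the median log2 change of the 7 was 0.20 in shNkx2-1, 0.20 with all 3 shRNAs and 0.18 in Tmet, where the medians over all genes were 0.00, 0.00 and 0.02. The plot of changes with intervals shows that the binding proteins split in both directions in all 6 comparisons, which share groups.

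Levels of different genes can be set side by side only per transcript length, here as CPM per kilobase of annotated exon. On this scale the largest binding protein level in shControl was that of Igfbp7 (146 ± 0.8, SD, n = 2), followed by Igfbp4 (71.0 ± 7.7), with Igfbp3 at 3.37, Igfbp5 at 1.79 and Igfbp6 at 0.183. In shNkx2-1 Igfbp4 (81.8) lay above Igfbp7 (49.8) and Igfbp3 (13.7). In the triple knockdown Igfbp4 reached 215, Igfbp7 123 and Igfbp3 33.3. In Tmet Igfbp3 (127) and Igfbp4 (125) were level within their spread, with Igfbp6 at 57.9, Igfbp7 at 4.83 and Igfbp5 at 0.0129. The receptors stood lower on the same scale, Igf1r at 7.07 to 8.51 and Igf2r at 9.97 to 13.0 over the 4 group means.

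As a share of the summed binding protein level per kilobase, Igfbp7 made up 67.5% and 64.1% in the shControl libraries. It made up 31.3% and 37.0% with the Nkx2-1 shRNA, 33.9% and 32.2% with all 3 shRNAs, and 0.844% and 2.50% in Tmet. Igfbp4 took 30.1% and 33.6% in shControl and was the largest component in both knockdown groups, at 54.3% to 59.7%. The makeup was thus alike in the 2 knockdown groups, although the summed level per kilobase was 144 and 148 in shNkx2-1 but 377 and 367 in the triple knockdown. Igfbp3 took 1.71% and 1.32% in shControl and 42.2% and 37.7% in Tmet, and Igfbp6 took 15% and 23% in Tmet. The summed level was 218 and 228 in shControl and 364 and 263 in Tmet. These shares were described and not tested.

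**Figure D3:**
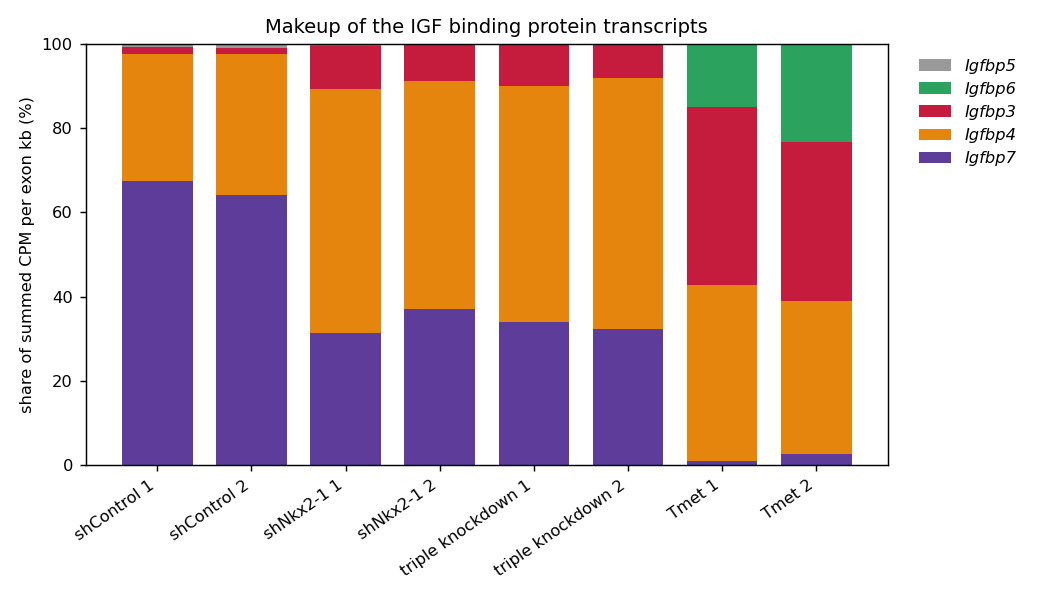
Share of each binding protein gene in the summed binding protein level (y axis, percent of summed CPM per exon kilobase) for each library (x axis). Igfbp7 fills 67.5% and 64.1% of the shControl bars, Igfbp4 54.3% to 59.7% of the 4 knockdown bars, and Igfbp3 42.2% and 37.7% of the Tmet bars.

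The genes whose pattern lay closest to the 3 most variable members were ranked by the root mean square difference of centred log2 CPM over the 8 libraries. Nearest to Igfbp6 were Stac2 (0.20), the matrix proteoglycan gene Bgn (0.22) and Apbb1ip (0.37), and Bgn averaged 9.75, 10.4, 17.8 and 2268 CPM in shControl, shNkx2-1, the triple knockdown and Tmet. Nearest to Igfbp5 were Plac8 (0.49), Hs3st5 (0.52), a heparan sulfate sulfotransferase gene, and Dio1 (0.71), a deiodinase gene. Plac8 averaged 56.2, 11.3, 0.897 and 1.56 CPM in the same order. Nearest to Igfbp3 were Serpinb9e (0.31), a member of a family of near-identical serpins whose reads may be split, the endocytic adaptor gene Dab2 (0.39) and Pvrl1 (0.46). Dab2 averaged 0.780, 2.62, 5.84 and 18.4 CPM. Several of these genes lay under the floor in some groups, where the prior count of 2 shaped the log2 level. In shControl, Serpinb9e averaged 0, Pvrl1 0.144 and Stac2 0.152 CPM, and Stac2 averaged 0.0867 CPM in shNkx2-1. Apbb1ip averaged 0 to 0.03205 CPM in the Tnonmet groups, and Hs3st5 and Dio1 0.0252 to 0.09235 CPM in the triple knockdown and Tmet. Igfbp1, the gene beside Igfbp3 on chromosome 11 and a binding protein of liver, had a single count, in shNkx2-1 replicate 2.

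Beyond the family itself, 92 other genes were listed around the pathway, of which 75 passed the filter. Of the 75, 5 were called higher and 2 lower in shNkx2-1 against shControl, 17 higher and 8 lower in the triple knockdown, and 28 higher and 19 lower in Tmet. In either direction these were 9.33%, 33.3% and 62.7% of the 75, beside 3.55%, 24.35% and 57.3% of all tested genes, the shares against which each list below is to be read. The 7 calls in shNkx2-1 were all lost without shControl replicate 1. No tested gene at all was called in that fit, so this loss is not particular to the 7. Their log2 changes there kept their direction, at -1.41 (Irs1) to 3.24 (Igf2bp2). Of these 7, the calls of the docking protein gene Irs2 (log2 change 0.64) and of Gnptab (0.67) and M6pr (-0.47) of the mannose-6-phosphate route were also lost with the replicate block (adjusted p = 0.0714, 0.0690 and 0.0795), at log2 changes of 0.65, 0.67 and -0.47. In the list of docking and adaptor proteins under the receptors 16 genes were tested, with 1 higher and 1 lower in shNkx2-1. There were 5 higher and 3 lower in the triple knockdown, and 8 higher and 5 lower in Tmet. The calls made up 12.5%, 50% and 81.3% of the list (all genes 3.55%, 24.35% and 57.3%). The list also held the phosphatase genes Ptpn1 and Ptpn11 and the signalling suppressor genes Socs1, Socs2 and Socs3. Of these, Ptpn1 was called lower and Ptpn11 and Socs1 higher in both the triple knockdown and Tmet, and Socs3 higher in the triple knockdown. Irs1, the docking protein that the activated receptor phosphorylates, had 35.6 and 29.1 CPM in the shControl libraries, 9.78 and 12.1 with the Nkx2-1 shRNA alone, 4.58 and 3.91 with all 3 shRNAs, and 98.9 and 92.2 in Tmet. Tmet was highest, the triple knockdown lowest and no groups overlapped, so that the knockdown groups and Tmet lay on opposite sides of shControl. Against shControl, the log2 change of Irs1 was -1.56 ± 0.17 in shNkx2-1 (adjusted p = 0.00625), -2.92 ± 0.18 with all 3 shRNAs (adjusted p = 7.07e-05) and 1.56 ± 0.16 in Tmet (adjusted p = 0.000112). The first of these was lost without shControl replicate 1 (0.0705) or shNkx2-1 replicate 1 or 2 (0.0739 and 0.0547), at -1.73 to -1.41. Ptpn11, a phosphatase that aids receptor signalling, rose in Tmet against shControl from 125 ± 7.4 to 250 ± 36.6 CPM (1.01 ± 0.12, adjusted p = 0.000285). Sh2b2, an adaptor of the insulin receptor, had 1 and 0 counts in shControl and stood at 13.0 and 11.8 CPM in Tmet (adjusted p = 6.87e-05). Like Igfbp6, Sh2b2 passed the filter through the Tmet libraries alone, and so did Grb10, also called higher there. Both are in the 81.3% of the list called in Tmet.

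Insr, which encodes the insulin receptor and can pair with the IGF1 receptor, had 83.9 and 85.6 CPM in the shControl libraries, 87.3 and 94.1 with the Nkx2-1 shRNA alone, 45.2 and 45.2 with all 3 shRNAs, and 114 and 54.2 in Tmet. The triple knockdown was lowest, while the Tmet duplicates lay on both sides of shControl. Its change in the triple knockdown was -0.91 ± 0.29 in log2 against shControl (adjusted p = 0.0556) and -1.01 ± 0.29 against shNkx2-1 (adjusted p = 0.0446). The latter was lost with the replicate block (0.0597) and without any 1 of the 6 Tnonmet libraries (0.0869 and 0.0872 without a shControl library, 0.134 and 0.197 without a shNkx2-1 library, 0.190 and 0.191 without a triple knockdown library). The insulin ligand and receptor list, which also held the growth hormone receptor gene Ghr, had 4 tested genes. None was called in shNkx2-1 or Tmet against shControl. In the triple knockdown 1 was lower, Insl6, an insulin-like peptide gene at 2.61 CPM in shControl and 0.678 in the triple knockdown. That call (adjusted p = 0.0165) was lost without shControl replicate 2 (0.112) or triple knockdown replicate 1 or 2 (0.0597 and 0.122).

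In the list for the relay from PI3K through AKT to mTOR 28 genes were tested. Against shControl, 1 of these was higher in shNkx2-1 and none lower. In the triple knockdown 3 were higher and 1 lower, and in Tmet 8 were higher and 7 lower. The 28 include Pdk1, a pyruvate dehydrogenase kinase gene outside the relay, which was not called in these comparisons. The shares called, 3.57%, 14.3% and 53.6%, lay at or below those of all genes (3.55%, 24.35% and 57.3%). Tsc2, which restrains mTOR, fell in the triple knockdown from 144 ± 3.9 to 96.7 ± 1.9 CPM (log2 change -0.58 ± 0.09, adjusted p = 0.00363). Eif4ebp1, a translation repressor controlled by mTOR, rose in Tmet from 83.3 ± 0.19 to 229 ± 62.9 CPM (1.46 ± 0.20, adjusted p = 0.000527). Foxo1, a transcription factor that AKT holds out of the nucleus, fell there from 72.6 ± 1.9 to 25.7 ± 4.0 CPM (-1.50 ± 0.16, adjusted p = 0.00013). Pik3ca, the catalytic subunit of PI3K, rose in Tmet by 0.87 ± 0.13 (adjusted p = 0.000743).

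Among 11 tested genes of other binding proteins, proteases that cut them and inhibitors of those proteases, 1 was higher in shNkx2-1 and none lower, 3 were higher and 1 lower in the triple knockdown, and 6 were higher and 2 lower in Tmet. These were 9.09%, 36.4% and 72.7% of the list, beside 3.55%, 24.35% and 57.3% of all genes. Htra1, a secreted serine protease that can cut binding proteins, had 17.3 and 15.1 CPM in the shControl libraries, 35.3 and 27.0 with the Nkx2-1 shRNA alone, 100 and 90.3 with all 3 shRNAs, and 154 and 139 in Tmet. Like those of Igfbp3, these levels stood in that order without overlap. Htra1 rose over shControl by 2.56 ± 0.16 in log2 in the triple knockdown (adjusted p = 7.56e-05) and by 3.18 ± 0.17 in Tmet (adjusted p = 3.4e-06). Its rise of 0.94 ± 0.16 in shNkx2-1 (adjusted p = 0.0251) was lost without any 1 of the 6 Tnonmet libraries: 0.187 and 0.194 without shControl replicate 1 or 2, 0.180 and 0.0740 without shNkx2-1 replicate 1 or 2, and 0.0626 and 0.0624 without triple knockdown replicate 1 or 2. The log2 change was 0.74 to 1.12 in these fits. Esm1, a secreted proteoglycan with a domain like that of the binding proteins, averaged 0.488 CPM in shControl and 241 in Tmet (8.99 ± 0.36, adjusted p = 8.69e-07). Stc2, an inhibitor of PAPP-A, had 0 or 1 count per Tnonmet library and stood at 9.08 and 8.42 CPM in Tmet. It passed the filter through the Tmet libraries alone. Adam9, a membrane protease, fell in Tmet from 403 ± 5.7 to 163 ± 6.0 CPM (-1.30 ± 0.09, adjusted p = 1.76e-05). The PAPP-A gene itself, Pappa, did not pass the filter.

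The group of Igf2 mRNA-binding genes and imprinted neighbours had 7 tested genes, of which 1 was higher in shNkx2-1, 4 were higher in the triple knockdown, and 4 were higher and 2 lower in Tmet. The shares called were 14.3%, 57.1% and 85.7% of a short list (all genes 3.55%, 24.35% and 57.3%). Igf2bp2, an oncofetal RNA-binding protein gene, had 6.60 and 7.02 CPM in the shControl libraries, 78.3 and 54.8 with the Nkx2-1 shRNA alone, 85.6 and 60.8 with all 3 shRNAs, and 50.7 and 41.3 in Tmet. The shControl libraries were far below the other 6, and both knockdown groups overlapped. Its rise in shNkx2-1, the one called in this list there, was 9.75-fold (log2 change 3.29 ± 0.25, adjusted p = 0.00333). The call was lost without shControl replicate 1, as was that of every gene, at a log2 change of 3.24. Its log2 rise was 3.42 in the triple knockdown (adjusted p = 0.000126) and 2.75 in Tmet (adjusted p = 5.73e-05). Igf2bp3 was different: it averaged 0.935 to 1.47 CPM in the Tnonmet groups and 19.6 in Tmet (adjusted p = 2.5e-05 against shControl). Igf2 mRNA itself was at or near 0 in all of these libraries.

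The list for the mannose-6-phosphate route, on which Igf2r acts, had 9 tested genes. It also held Cd109 and Plaur, genes of surface proteins that are not parts of the route itself. Against shControl, 1 of the 9 was higher and 1 lower in shNkx2-1, and 2 were higher and 2 lower in the triple knockdown. There were 2 higher and 3 lower in Tmet. Cd109 was among the higher calls in the triple knockdown and Tmet. In Tmet the share called was 55.6%, near the 57.3% of all genes, while it was 22.2% and 44.4% in the other comparisons (all genes 3.55% and 24.35%). Ctsl, a lysosomal protease, had 276 and 248 CPM in the shControl libraries, 277 and 280 with the Nkx2-1 shRNA alone, 523 and 532 with all 3 shRNAs, and 1139 and 990 in Tmet. It rose over shControl by 1.01 ± 0.11 in log2 in the triple knockdown (adjusted p = 0.000626) and by 2.02 ± 0.11 in Tmet (adjusted p = 4.45e-06). M6pr, the smaller mannose-6-phosphate receptor, fell in Tmet from 255 ± 19.5 to 150 ± 3.1 CPM (-0.76 ± 0.10, adjusted p = 0.000419). Sort1, which encodes the sorting receptor sortilin, fell in the triple knockdown from 9.40 ± 1.23 to 2.80 ± 1.06 CPM (-1.74 ± 0.30, adjusted p = 0.00455). Of the pathway genes named here, calls printed with an adjusted p and without a stated loss held under all alternatives run.

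**Figure D4:**
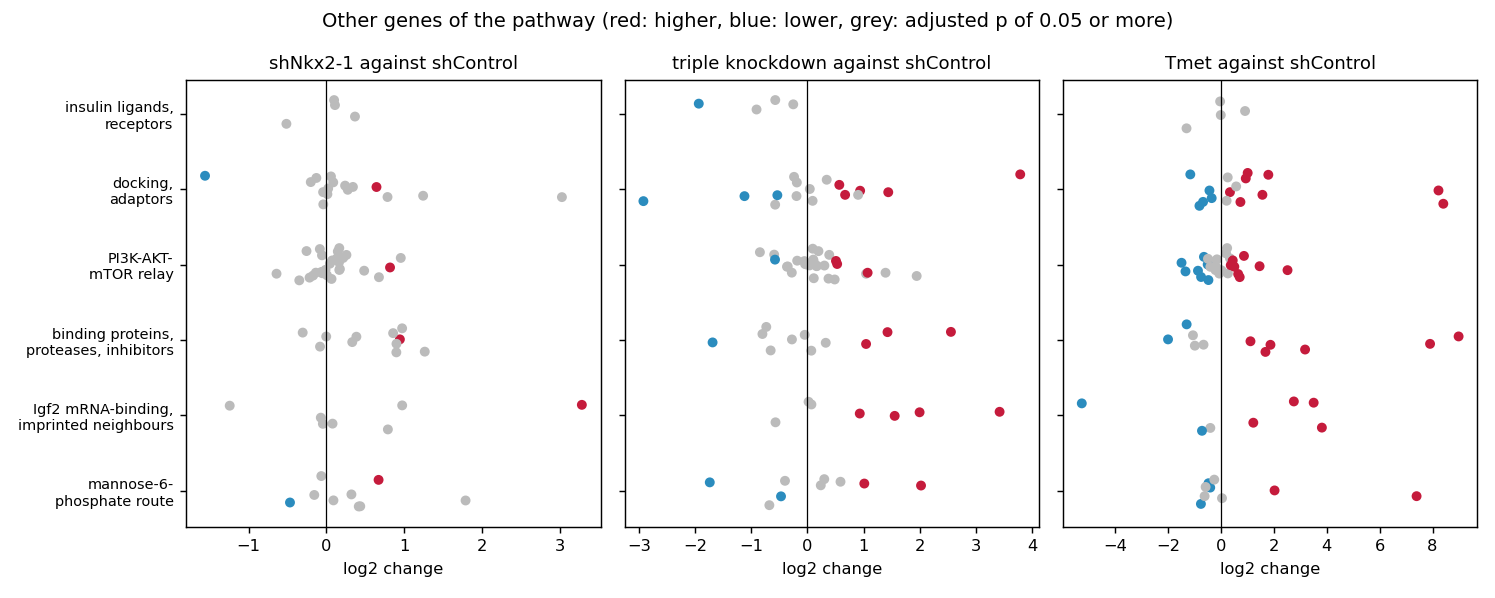
Log2 change against shControl (x axis, a separate scale in each panel) of the 75 other pathway genes tested, in rows by their list, for shNkx2-1, the triple knockdown and Tmet. Each point is a gene, red or blue where it passed adjusted p 0.05 (higher or lower) and grey where it did not, with vertical scatter added for legibility. Coloured points lie on both sides of 0 in most rows for the triple knockdown and Tmet. For shNkx2-1 they do so only in the docking and mannose-6-phosphate rows. The coloured genes number 7 for shNkx2-1, 25 for the triple knockdown and 47 for Tmet.

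The plot of the other pathway genes shows calls in both directions in each comparison, and the medians of the 75 log2 changes were 0.10, 0.09 and 0.01. In the comparisons between the other groups 12 of the 75 were higher and 13 lower in the triple knockdown against shNkx2-1, 21 and 25 in Tmet against shNkx2-1, and 21 and 19 in Tmet against the triple knockdown.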

How the data were processed

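RNA of 8 libraries (4 groups of 2) was read from 1 end. The authors deposited 1 table of estimated counts (RSEM expected counts) per gene. Bowtie 1.0.1, RSEM 1.2.12 and the build mm9 are named, without roles, in the submitters' processing notes. Annotation, strand setting and read filters were not given in the sources used here. Column names were matched to samples by their short forms (the initials of the 3 targets for the triple knockdown), and every column was used. For the tests each value was rounded to a whole number.

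The filterByExpr function of edgeR, given the groups, a minimum count of 10 and a minimum total of 15, passed 13318 genes to the test and held back 9906. A single quasi-likelihood fit (edgeR 4.0.16, with TMM scaling and without a block) covered all 8 libraries. It had 4 residual and 3.94 prior degrees of freedom, and its common coefficient of biological variation was 15.6%. R 4.3.3, limma 3.58.1 and DESeq2 1.42.0 were also used. The 6 contrasts were tested two-sided, and Benjamini-Hochberg adjustment ran over all tested genes with a threshold of 0.05; these are the adjusted p-values printed. Standard errors are the log2 change divided by the root of the F statistic, and 95% intervals follow from them. The scripts were tested on simulated data. Levels are CPM with TMM factors, and a floor of 3 counts sets the limit of detection. Exon lengths came from GENCODE M21 and promoters from RefSeq, both of GRCm38, another build than mm9, and the symbols of all 10 genes matched both. The promoter motifs were chosen after the sequences were seen.

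The members and lists were chosen with earlier results of these data known. All 10 members are described. From each list of other pathway genes up to 3 per contrast with the smallest p could be named. Named for context were Insr, Ghr and Ptpn11 in contrasts with shControl, Grb10, Ptpn1, Socs1, Socs2, Socs3, Cd109, Plaur and Pdk1. So were Pappa, Stc2, Airn, H19, Ins2 and Igfbp1. The targeted genes and the cell type markers were also named for context. A result of the PI3K-AKT-mTOR list is not reported here. Alternatives were DESeq2, edgeR with DESeq2 size factors, no filter, a replicate block, a fit of only the groups compared, a fit without both Tmet libraries, and leaving out each library in turn.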

Additional observations from a re-analysis of the deposited data

How the results depend on the processing

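Of 42 log2 changes of the 7 tested genes, 25 were called, and 15 of these calls held under all alternatives run. Each of the other 10 was lost in at least 1 fit without 1 library. A group left with 1 library is assumed to vary like the rest. The number of genes called in shNkx2-1 against shControl, 473, was 908 with DESeq2, 294 with the replicate block, 1779 in a fit of only these groups and 2006 without both Tmet libraries. It ran from 0 to 1998 over the fits without 1 library. The 0, without shControl replicate 1, came from edgeR, with 1317 genes at an unadjusted p under 0.05 and 247 called by DESeq2. In the triple knockdown against shControl 3243 became 5607 in a fit of only these groups, 5424 without both Tmet libraries and 1248 to 5459 without 1 library. Against shNkx2-1 its 2711 became 4518, 4958 and 1024 to 4994. In Tmet against the triple knockdown 6404 became 3962 to 7901 without 1 library. The members called went from 3 to between 0 and 3 in shNkx2-1 against shControl and from 4 to between 2 and 5 in the triple knockdown against shNkx2-1. The cause of these shifts was not tested.

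Log2 changes that were not called turned sign without some library: Igf1r in Tmet against shControl (-0.013 to 0.35), in the triple knockdown against shNkx2-1 (-0.26 to 0.16), in Tmet against shNkx2-1 (-0.30 to 0.12) and in Tmet against the triple knockdown (-0.12 to 0.055), and Igf2r in the triple knockdown against shControl (-0.079 to 0.059). No other member change reversed under any alternative. Same-numbered libraries deviated together weakly among the Tnonmet groups (r = 0.15, 0.17 and 0.23 across genes) and not with Tmet (-0.04, -0.15 and -0.16), so the numbers were not read as pairing over the 8 libraries. The labels name no batch. The replicate block ended 1 member call, the fall of Igfbp5 in shNkx2-1, the calls of Irs2, Gnptab and M6pr in shNkx2-1 against shControl, that of Insr in the triple knockdown against shNkx2-1, and those of Insr and Ghr in Tmet against the triple knockdown. Depth limits the ligands, Igfbp2, Igfbp6 outside Tmet and Igfbp5 in the triple knockdown and Tmet.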
